A study of Mus musculus with 3 samples.

Results

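Transcripts of proteasome genes were examined in bone-marrow-derived macrophages (BMDM, a primary culture) of C57BL/6J mice, 30 min after 100 ng/ml of Lipid A was added, the lipid anchor of lipopolysaccharide that Toll-like receptor 4 senses. Members were all protein-coding genes with a symbol starting with Psma, Psmb, Psmc, Psmd, Psme, Psmf or Psmg. The rule found 50 of the 55536 annotated genes, 21901 of which have a protein-coding transcript, and left out 4 pseudogenes (Psmb5-ps, Psmb6-ps, Psmb6-ps2 and Psmb7-ps2). One of the 50, Psmc3ip, a partner protein of meiotic recombinases, shares the name but is no proteasome subunit.

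The proteasome degrades ubiquitin-tagged proteins and cuts them into peptides. Its barrel-shaped 20S core stacks rings of alpha subunits, which form the gate, around rings of beta subunits, of which beta1 (Psmb6), beta2 (Psmb7) and beta5 (Psmb5) carry the cutting sites. Interferon-responsive and hematopoietic cells also make beta1i (Psmb9), beta2i (Psmb10) and beta5i (Psmb8), which replace them in the immunoproteasome and shift the peptides made towards those that fit class I major histocompatibility molecules. The 19S particle, with an ATPase ring, a base and a lid, receives ubiquitinated proteins, whereas the PA28 and PA200 caps open the gate without ubiquitin.

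Cytosolic RNA was sequenced after ribosomal RNA was removed, in 3 libraries of 1 group, replicates 1, 2 and 3, so all cells carried the same treatment and no unstimulated cells or nuclear fraction were analysed here. The labels call the libraries biological replicates but give them 1 donor record, and age and sex were not collected. Errors are therefore the spread over 3 samples that may differ only technically, and in bulk RNA fewer cells of a type and less RNA per cell cannot be told apart. Annotated genes received 23403552, 50435201 and 35785896 expected counts (the authors' estimate of reads per gene). All 8 macrophage markers were at 1 TPM or more (transcripts scaled for length and library, a relative level), from 21.4 for Itgam to 5224 for Lyz2. Replicate 1 stood apart in stromal markers: the summed level of 10 of them was 293 CPM (counts scaled to library size), against 0.600 in replicate 2 and 1.30 in replicate 3, and their part in any result here was not tested. Nuclear-encoded protein-coding genes took 22.3%, 34.4% and 24.3% of all TPM in replicates 1, 2 and 3. TPM was highest in replicate 2 for every member with counts except Psmb5, and spreads of TPM include that scale.

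Proteasome transcripts were abundant relative to most genes. Of the 50 members, 47 reached a mean of 1 TPM and 40 (80.0%) reached 10 TPM, whereas 18.0% of all nuclear-encoded protein-coding genes did, and 42.1% of those at 1 TPM or more. The median member had 22.9 TPM. Members together took 0.288% of the counts of nuclear-encoded protein-coding genes in replicate 1 (95% Wilson interval 0.285 to 0.290), 0.336% in replicate 2 (0.335 to 0.338) and 0.299% in replicate 3 (0.297 to 0.301). The intervals did not overlap, but they cover counting error only. Psmb6 and Psmd8 were the 2 members above 100 TPM.

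**Figure D1:**
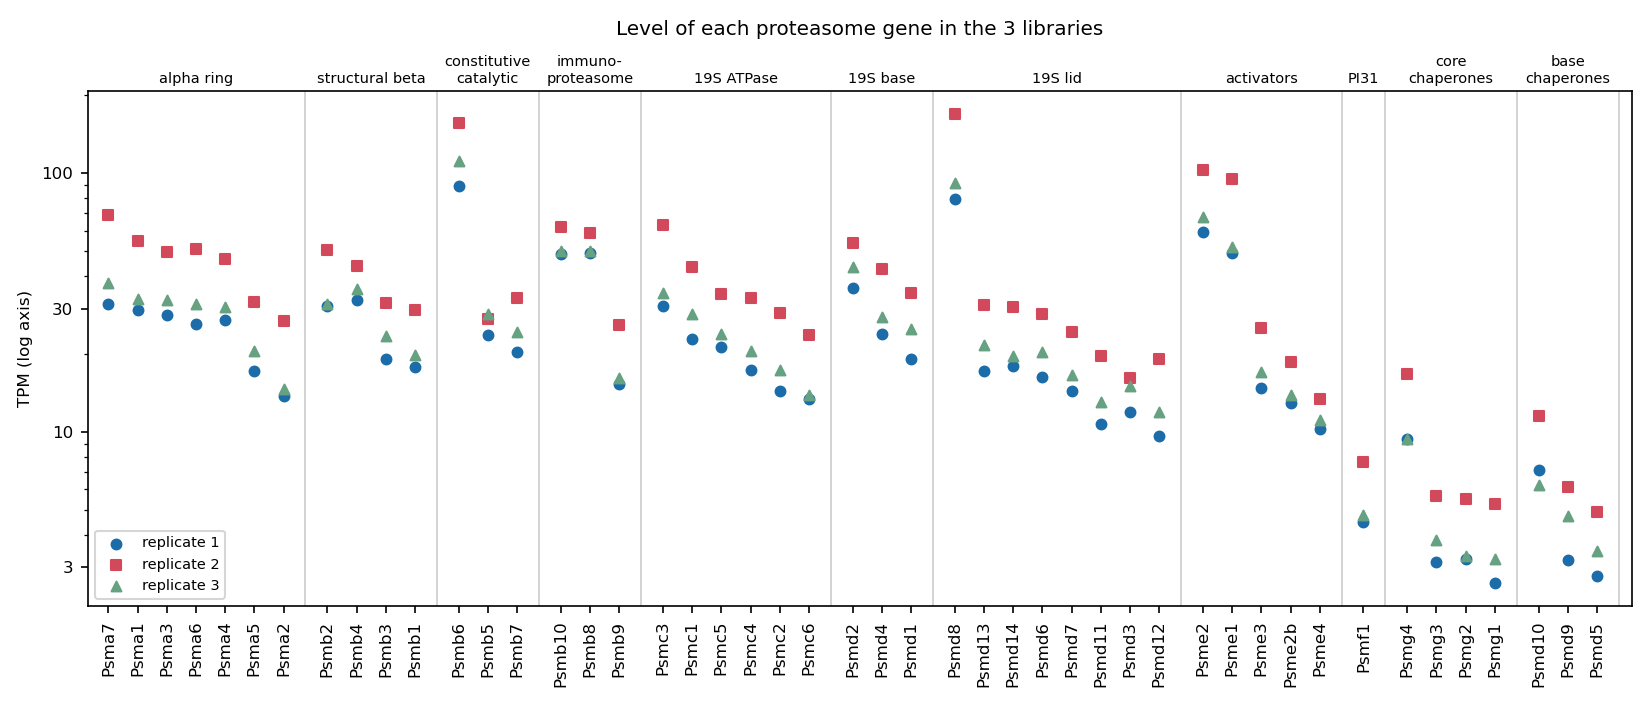
TPM on a log axis of the 47 members at 1 TPM or more, each point 1 library, grouped by role and ordered by mean within a role. Most subunits lie between about 10 and 100 TPM, Psmb6 and Psmd8 stand above their roles, and the means of the chaperones and PI31 lie below those of every constitutive core, base and lid subunit.

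Among the catalytic subunits, 2 of the 3 immunoproteasome genes exceeded their constitutive counterparts in summed gene TPM, and the third did not. Psmb8 (chr17:34197721-34201454) had 49.0, 58.9 and 50.2 TPM in replicates 1, 2 and 3, and Psmb5, the constitutive chymotrypsin-like subunit on chromosome 14, had 23.6, 27.4 and 28.7 TPM. Every Psmb8 value lay above every Psmb5 value. The log2 ratio within a library was 0.99 ± 0.16 (SD, n = 3), a 1.98-fold difference.

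Psmb10 had 48.7, 61.9 and 49.9 TPM and Psmb7, its trypsin-like counterpart, 20.4, 33.0 and 24.3 TPM. These values did not overlap either, and the log2 ratio was 1.07 ± 0.17 (SD, n = 3), or 2.09-fold; in expected counts without length it was 0.23. Psmb9 went the other way, with 15.3, 26.0 and 16.1 TPM against 89.4, 156 and 111 TPM for Psmb6, the caspase-like subunit. Its log2 ratio was -2.64 ± 0.12 (SD, n = 3), so Psmb9 lay 6.22-fold lower. The sign of each ratio was the same in all 3 libraries, and each gave p = 0.25 in an exact permutation test that flips signs by library (two-sided), the lowest p that 3 libraries allow. The 3 immunoproteasome genes summed to 45.8%, 40.4% and 41.5% of the TPM of the 6 catalytic genes.

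The excess of Psmb8 and Psmb10 lay in transcripts that are not annotated as protein-coding. In the authors' first transcript table, the leading Psmb8 transcript was Psmb8-205, annotated as retained intron, with 24.6, 30.1 and 24.7 TPM. The leading coding transcript, Psmb8-203, had 23.5, 27.2 and 24.6 TPM. Psmb8-205 thus took 50.2% ± 0.882 of the TPM of the gene (SD, n = 3) and 61.0% ± 0.715 of its expected counts. For Psmb10 the leading transcript was Psmb10-203, a processed transcript of 426 bases, with 26.7, 29.1 and 27.7 TPM, against 15.9, 21 and 17.5 TPM for the only coding transcript, Psmb10-201. In counts the order was reversed, with 253, 413 and 379 expected counts for Psmb10-203 and 802, 1692 and 1226 for Psmb10-201. The short transcript has an effective length (the number of positions a fragment can start from) of 202 bases and the coding one of 1085, and TPM divides by that length.

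The bases that set these transcripts apart from all coding transcripts of the same gene are shown because the split rests on them; capitals mark the GT and AG ends of the retained Psmb8 intron (chr17:34199381-34199570, plus strand, GRCm38) and the AG that ends the intronic start of Psmb10-203 (chr8:105936982-105937025, minus strand, GRCm38).
Psmb8-205 intron: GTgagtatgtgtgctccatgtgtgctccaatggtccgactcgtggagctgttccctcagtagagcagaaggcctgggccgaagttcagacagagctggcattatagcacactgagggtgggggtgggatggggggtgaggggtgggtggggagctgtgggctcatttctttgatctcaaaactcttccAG
Psmb10-203 start: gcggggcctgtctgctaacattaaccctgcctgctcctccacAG

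The intron is 190 of the 1234 bases of Psmb8-205, so its other bases also occur in coding transcripts. The annotated 3' ends differ as well: the last exon has 273 bases in Psmb8-205 and 28 bases in Psmb8-203. Among transcripts at 0.5 TPM or more, reads from the longer last exon fit Psmb8-205 and the less abundant coding transcript Psmb8-201 (0.907 ± 0.515 TPM, last exon 277 bases), but not Psmb8-203. The deposited tables do not give reads per exon, so reads over the intron and reads over the 3' end cannot be told apart. Psmb10-203 has 48 bases outside the coding transcript, 44 of them in the stretch printed above.

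Counting protein-coding transcripts only, Psmb8 had 26.0 ± 2.37 TPM and Psmb5 26.6 ± 2.60 TPM (SD, n = 3). Their log2 ratio became 0.03, 0.07 and -0.19 in replicates 1, 2 and 3, a mean of -0.03 ± 0.14. Psmb10 lay below Psmb7, with 18.1 ± 2.65 against 25.8 ± 6.49 TPM and a log2 ratio of -0.49 ± 0.15 that was negative in all 3 libraries. Psmb9 stayed below Psmb6 at -2.48 ± 0.16. On this scale the immunoproteasome share of catalytic TPM was 31.7%, 28.3% and 28.2%. The direction of the Psmb8 and Psmb10 ratios therefore depended on whether non-coding transcripts were counted, and none of the 3 coding ratios was above 0 in every library.

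**Figure D2:**
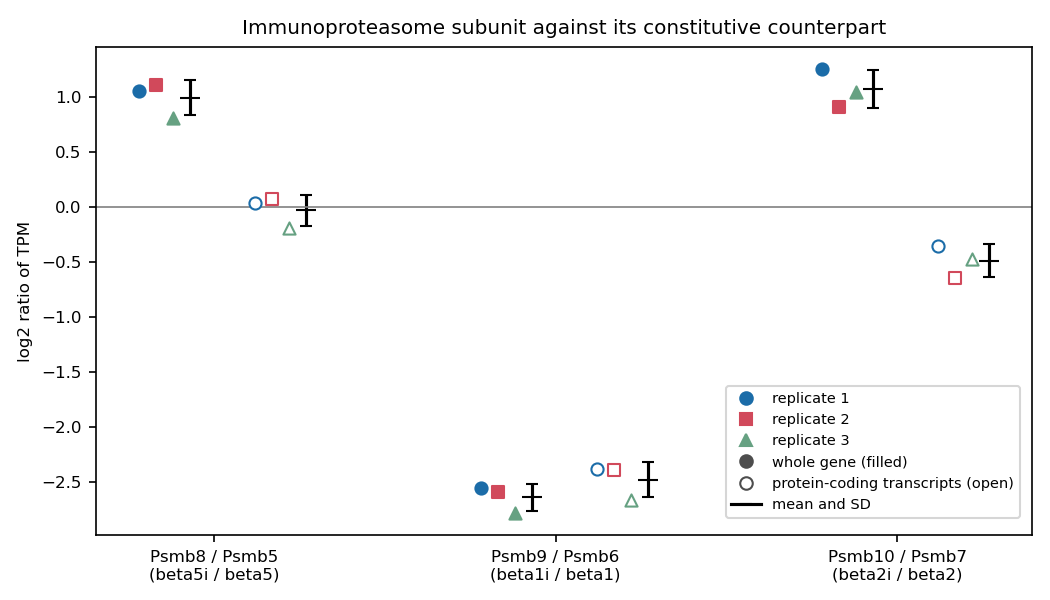
Log2 ratio of TPM of each immunoproteasome subunit to its constitutive counterpart, 1 point per library with mean and SD, for the whole gene (filled) and for protein-coding transcripts only (open). The Psmb8 ratio drops from 0.99 to -0.03 and the Psmb10 ratio from 1.07 to -0.49, while the Psmb9 ratio goes from -2.64 to -2.48.

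Few proteasome genes had a large non-coding share, but a non-coding leading transcript was about as common as in other genes. Of the 46 members at 1 TPM or more with at least 2 annotated transcripts, 43 (93.5%) had a protein-coding leading transcript, and the share of TPM in non-coding transcripts had a median of 1.19%. The leading transcript took a median 96.1% of a member's TPM, beside 78.9% for those genes. In the first transcript table, 4 members (8.70%) had 20% or more of their TPM in non-coding transcripts, beside 19.1% of those genes. Besides Psmb10 (66.2% ± 1.21) and Psmb8 (50.6% ± 0.758) these were Psma3 and Psmd13.

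Psma3, the alpha7 subunit, had 48.4% ± 2.33 (SD, n = 3) of its TPM in non-coding transcripts, and 27.2% in those annotated as retained intron. Its leading transcript was still the coding Psma3-204, with 13.4, 23.7 and 14.4 TPM. Psmd13, a lid subunit, had 36.5% ± 0.655 in non-coding transcripts. Its leading transcript by mean TPM, with 34.1% ± 1.33, was Psmd13-211, annotated for nonsense-mediated decay, with 5.80, 11.0 and 7.20 TPM. The coding Psmd13-201 had 6.40, 9.31 and 6.57 TPM and was the higher of the pair in replicate 1. In expected counts the order was reversed, with 49.1% ± 5.59 for Psmd13-201 and 25.5% ± 2.06 for Psmd13-211. Psmd13-211 has 0 bases outside the coding transcripts, so only its exon junctions can set it apart. The constitutive Psmb6 had 18.2% ± 1.71 of its TPM in retained-intron transcripts, and Psme2 14.8% ± 11.2, a share that varied strongly between libraries.

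**Figure D3:**
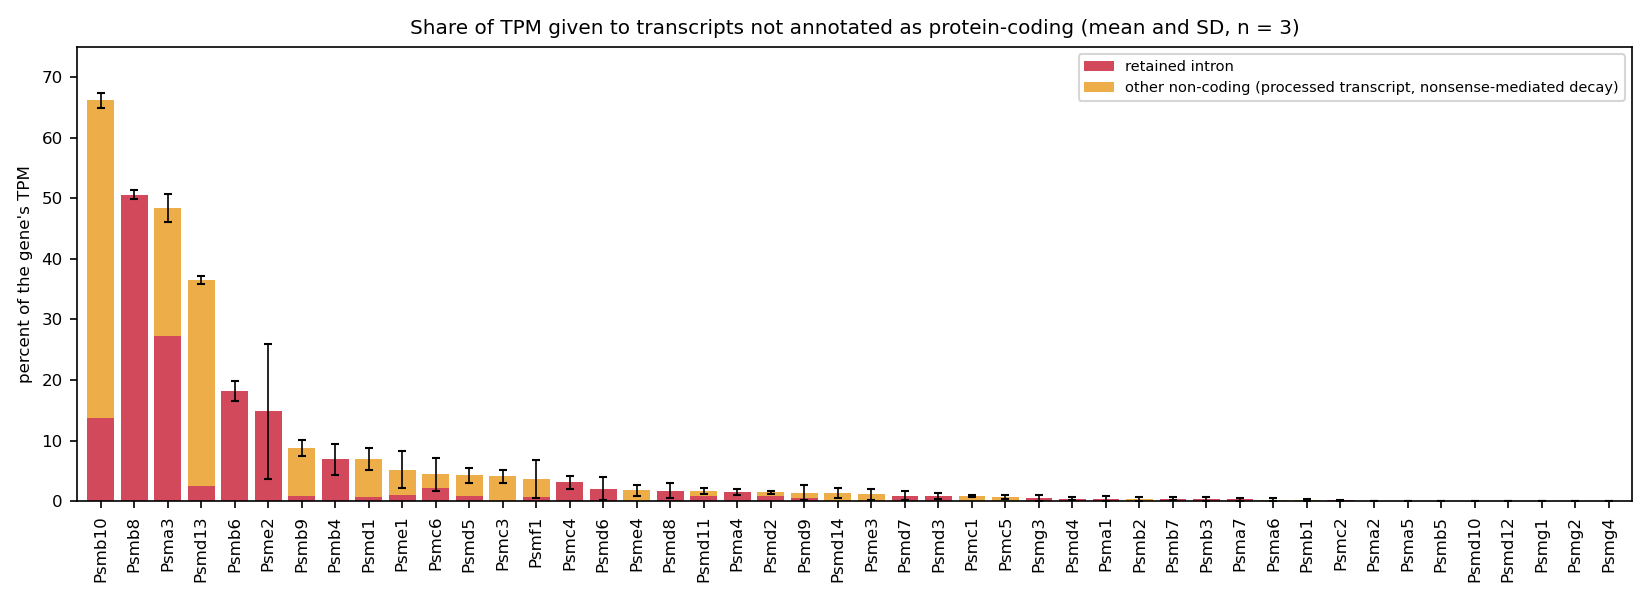
Percent of each member's TPM in transcripts not annotated as protein-coding in the first transcript table, mean and SD over 3 libraries. Shown are the 46 members at 1 TPM or more with at least 2 transcripts. Psmb10, Psmb8, Psma3 and Psmd13 stand above 20%, and the median member has 1.19%.

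The second transcript table, from another estimator, gave a similar picture. The leading transcript was the same for 44 of 46 members (95.7%), beside 89.7% of nuclear-encoded protein-coding genes. The 2 exceptions were Psmf1, led by Psmf1-202 there, and Psmd13, led by the coding Psmd13-201. Non-coding transcripts took 52.2% ± 2.11 of Psmb8, 59.9% ± 3.95 of Psmb10, 56.9% ± 13.4 of Psma3 and 33.0% ± 1.02 of Psmd13 (SD, n = 3). Psmc6 (24.1%) and Psmb9 (20.5%) were also past 20% there, against 4.41% and 8.78% in the first transcript table. The share of other genes past 20% was not computed for the second table.

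The 7 alpha subunits, which form the outer rings and the gate, spanned a 2.49-fold range of mean TPM. Psma7 (alpha4) was the highest in each library, with 31.3, 68.7 and 37.7 TPM. Psma2 (alpha2) was the lowest in each, with 13.8, 26.8 and 14.6 TPM. The 5 others had means from 23.2 ± 7.62 (Psma5) to 39.1 ± 13.8 TPM (Psma1). The 4 non-catalytic beta subunits lay closer together, within 1.67-fold. Psmb2 had 30.7, 50.7 and 31.2 TPM, Psmb4 had 32.5, 43.9 and 35.8 TPM, and Psmb1 was lowest in each library with 17.8, 29.7 and 19.8 TPM. The order of Psmb2 and Psmb4 changed between libraries, so they did not differ beyond their spread.

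The ATPases of the 19S base, which unfold substrates, spanned 2.51-fold. Psmc3 was highest in each library, with 30.8, 62.8 and 34.5 TPM, and Psmc6 lowest in each, with 13.4, 23.8 and 13.9 TPM. In the rest of the base, the scaffold subunit Psmd2 had 35.9, 53.5 and 43.5 TPM and its partner scaffold Psmd1 had 19.2, 34.3 and 24.9 TPM. Psmd4, a ubiquitin receptor, lay between them at 31.5 ± 9.90 TPM.

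The lid had the widest range of any role, 8.34-fold. Psmd8 had 79.8, 169 and 91.6 TPM, whereas the other 7 lid genes had means from 13.6 ± 4.95 (Psmd12; 9.68, 19.2 and 12.0 TPM) to 23.3 ± 6.97 TPM (Psmd13). Each Psmd8 value was above each value of the other lid genes. Psmd14, the deubiquitinase of the lid, had 22.7 ± 6.76 TPM. The median log2(TPM + 1) of the 14 constitutive core subunits exceeded that of the 17 base and lid subunits in each library. The difference was 0.59, 0.53 and 0.55 in replicates 1, 2 and 3. Its mean was 0.56 ± 0.03 (SD, n = 3, p = 0.25 in the same exact permutation test). These medians were not compared in expected counts without length.

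Of the activators, the PA28 alpha and beta genes were the highest. Psme1 (alpha) had 49.2, 94.6 and 51.9 TPM and Psme2 (beta) had 59.4, 103 and 67.7 TPM. They lie near each other on chromosome 14 and encode the mixed ring that caps the core in the cytosol. Psme3, the PA28 gamma subunit of the nucleus, had 14.8, 25.2 and 17.0 TPM. The log2 ratio of Psme1 to Psme3 was 1.75 ± 0.15 (3.36-fold; exact sign-flip permutation p = 0.25, n = 3), and 0.27 when expected counts were compared without dividing by length. Psme1 lay slightly below Psme2, at a log2 ratio of -0.26 ± 0.13, and above it by 0.19 on that count scale. Psme4, which encodes PA200, was the lowest activator in each library, with 10.3, 13.4 and 11.1 TPM.

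Psme2b had 12.9, 18.7 and 13.9 TPM, but its transcript is 99.4% identical to Psme2 over 794 bases. Reads of the 2 genes cannot be told apart with certainty, so both levels are uncertain. In all, 12 members had a near-identical transcript elsewhere (95% identity or more over at least 200 bases). Beyond the Psme2 pair, 2 of these copies had 10 or more counts in any library: Gm13835, identical to Psma3 over 685 bases with at most 52.3 counts, and Gm8394, 98.6% identical to Psma5 with at most 12.6 counts. Both were small beside the 1053 to 2721 counts of Psma3 and the 813 to 2383 of Psma5.

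Regulators and assembly factors were lower in mean TPM than every constitutive core, base and lid subunit. Psmf1, which encodes the inhibitor PI31, had 4.48, 7.63 and 4.80 TPM. Of the core assembly chaperones, Psmg4 had 9.43, 16.7 and 9.36 TPM and Psmg1, the lowest in each library, 2.62, 5.25 and 3.22 TPM. The base chaperones ran from Psmd5 (2.79, 4.90 and 3.46 TPM) to Psmd10, which encodes gankyrin (7.13, 11.5 and 6.24 TPM). No value of Psmf1 or of a base chaperone other than Psmd10 reached the lowest value of any core, base or lid subunit, 9.68 TPM.

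Tissue-restricted members were at or near 0. In the gene table Psmb11, the thymus-specific beta5t, had 0 counts in each library, which allows up to 0.128, 0.0595 and 0.0838 CPM in replicates 1, 2 and 3. The second transcript table gave it 0.0109 ± 0.00614 TPM (SD, n = 3). Psma8, the testis form of alpha4, had 20, 72 and 38 counts, or 0.577 ± 0.261 TPM. Psmc3ip had 6, 45 and 18 counts, or 0.337 ± 0.264 TPM. Of 3 thymic epithelial markers, Foxn1 and Krt8 were at 0 counts and Prss16 had 0.333 TPM, with a summed level of 0.745, 0.974 and 0.750 CPM in replicates 1, 2 and 3. Of 2 testis markers, Tex101 was at 0 counts and Sycp3 had 0.0233 TPM, with sums of 0, 0.0431 and 0.0704 CPM. The part of such cells in these counts was not tested.

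Because there was 1 group, the test across all genes was of the spread between libraries. A chi-square test of each gene's counts against Poisson sampling, adjusted over 13237 genes, was passed by 40 of the 49 members tested (81.6%), and 67.9% of all tested genes passed it. Among nuclear-encoded protein-coding genes at 10 TPM or more the share was 89.9%, so the members' share lay between these backgrounds. The 9 members that did not pass were Psma8, Psmb3, Psmb7, Psmc5, Psmd5, Psmd9, Psme2b, Psmg2 and Psmg3. Without replicate 2, 16 members and 33.4% of all tested genes passed, against 34 members and 56.7% of all tested genes without replicate 1, and 33 members and 53.0% without replicate 3.

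The size of the spread was modest. The largest over the smallest CPM of a member was 1.21 at the median, beside 1.27 over all tested genes and 1.20 over nuclear-encoded protein-coding genes at 10 TPM or more. Of 49 members 47 (95.9%) stayed within 1.5-fold, beside 72.9% and 89.4% of those genes. The exceptions were Psma8 (1.54) and Psmc3ip (3.23). The biological coefficient of variation, edgeR's estimate of the spread beyond counting error, had a median of 13.0% over members. It was 17.5% over all tested genes and 12.4% over nuclear-encoded protein-coding genes at 10 TPM or more. The 5 members with the highest estimates were all low in counts: Psmc3ip (53.3%), Psma8 (40.1%), Psmg1 (25.0%), Psmg3 (24.7%) and Psmg4 (23.3%). Psma8 and Psmg3 did not pass the chi-square test (adjusted p = 0.237 and 0.332). Psmd8, with far more counts, had 16.8% at a 1.46-fold range, whereas Psmg3 ranged over 1.21-fold. The order of these estimates therefore cannot be read apart from the counts.

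Each gene's log2 CPM was set against its own mean over the 3 libraries. Of 49 members, 37 (75.5%) were highest in replicate 2, beside 44.3% of all tested genes and 51.4% of nuclear-encoded protein-coding genes at 10 TPM or more. All 7 alpha subunits, all 6 ATPases and 6 of the 8 lid genes were among them, whereas the 4 structural beta genes were split between replicates 2 and 3. Psmd8 deviated by -0.20, 0.34 and -0.14 in replicates 1, 2 and 3, Psma7 by -0.24, 0.33 and -0.09 and Psmc3 by -0.23, 0.29 and -0.06. The member medians were -0.09, 0.14 and -0.02, beside -0.02, 0.03 and -0.01 over all tested genes and -0.03, 0.05 and -0.02 over those at 10 TPM or more. With library totals in place of trimmed-mean (TMM) scaling, 44 members (89.8%) and 58.9% of all tested genes were highest in replicate 2.

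Psmb8, Psmb9, Psmb10, Psme4 and Psme2b, 5 of 49 members (10.2%), were highest in replicate 1, as were 26.2% of all tested genes and 22.1% of those at 10 TPM or more. With library totals, or in the second transcript table, these were 3 members: Psmb8, Psmb10 and Psme4. Psmb9 was highest in replicate 2 there, and also when TPM was scaled to nuclear-encoded protein-coding genes. Psmb8 deviated by 0.12, -0.15 and 0.03, Psmb10 by 0.08, -0.11 and 0.04 and Psmb9 by 0.10, 0.04 and -0.14. All 3 passed the between-library test (chi-square, adjusted p = 3.20e-11, 2.25e-04 and 0.00399 for Psmb8, Psmb10 and Psmb9), with differences of at most 1.21-fold. Leaving out 1 library ended each call: Psmb8 gave an adjusted p of 0.0747 and Psmb10 of 0.600 without replicate 2, and Psmb9 of 0.413 without replicate 3, in the same chi-square test. The Psmb10 call was also lost with library totals (adjusted p = 0.376) and in the second table (0.261). Another 7 members were highest in replicate 3, as were 29.5% of all tested genes: Psmb3, Psmb4, Psmb5, Psmb7, Psmd2, Psmd3 and Psmd13. Psmb5 had the largest drop in replicate 2 of any member, deviating by 0.08, -0.29 and 0.21 (32.5, 25.3 and 35.9 CPM).

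Base composition and length moved with the deviations of all tested genes. Over all tested genes the median deviation in replicate 2 was 0.06 for the genes with the lowest GC content of the leading transcript and -0.08 for those with the highest, taking 5 groups of equal size. By length it was 0.11 for the shortest and -0.01 for the longest of 5 such groups. Members did not show this order by length: their median was 0.11 in the shortest group (23 members) and 0.19 in the next (16 members). The longer groups had 0.12, 0.14 and -0.11, with 6, 3 and 1 members. The 6 members in the group with the highest GC, from 55.6% up, had a median deviation of -0.13 in replicate 2. Psmb5 (56.6%), Psmb8 (56.4%), Psmb10 (58.0%) and Psmd3 (58.3%) were among them and lay below 0 there. Psmb6 (55.8%) and Psmg3 (56.3%), also in the group, deviated the other way, by 0.08 and 0.11. After subtracting the median of the genes of like GC, in 10 groups of equal size, the members' median in replicate 2 was 0.07 and 31 members were highest there. The immunoproteasome median in replicate 2 moved from -0.11 to 0.00, while all 3 genes, still under TMM scaling, stayed highest in replicate 1 and Psmb5 stayed at -0.26 in replicate 2. Within 10 groups by length, 31 members were again highest in replicate 2, and the immunoproteasome median there was -0.23. The part of GC and length in the pattern was not tested further. These 2 comparisons were added after the data were seen.

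**Figure D4:**
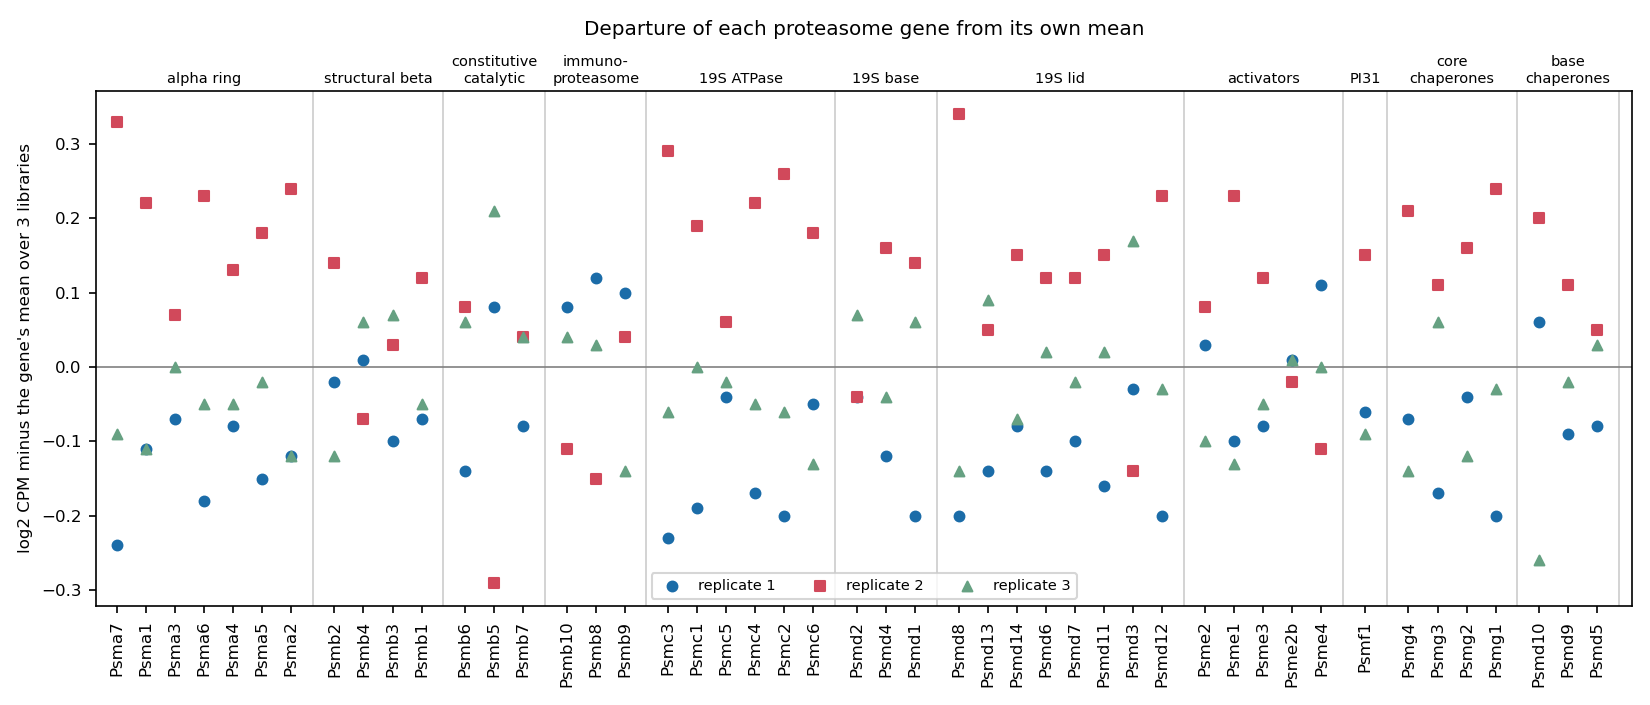
Log2 CPM of each member minus its own mean over the 3 libraries, 1 point per library, for the 47 members at 1 TPM or more. All alpha subunits and ATPases are highest in replicate 2, whereas Psmb8, Psmb9 and Psmb10 are highest in replicate 1 under this TMM scaling (Psmb9 in replicate 2 with library totals) and Psmb5 is at -0.29 in replicate 2.

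Class I presentation uses the peptides the proteasome makes. Of 7 genes of class I peptide handling, all at 10 TPM or more, all passed the between-library test, as did 67.9% of all tested genes and 89.9% of those at 10 TPM or more. In replicate 2, 6 (all but B2m) were lowest, beside 32.9% of all tested genes and 28.7% at 10 TPM or more. With library totals 5 were lowest there, beside 22.1% of all tested genes. In replicate 1, 5 were highest, beside 26.2% of all tested genes and 22.1% at 10 TPM or more. With library totals 6 were highest there, beside 19.9% of all tested genes. The list medians were 0.21, -0.26 and 0.03 in replicates 1, 2 and 3. Tap1, a subunit of the peptide transporter, deviated by 0.18, -0.26 and 0.09, and Irf1, a transcription factor of interferon-responsive genes, by 0.77, -0.41 and -0.37. The highest of the list were B2m, the class I light chain, at 1796 ± 606 TPM and Irf1 at 121 ± 41.8 TPM, and the lowest was Nlrc5, a class I transactivator, at 10.5 ± 2.77 TPM (SD, n = 3).

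Psmb9 and Tap1 are neighbours transcribed in opposite directions whose annotated first exons overlap, and Psmb8 and Tap2 follow them within 1 stretch of chromosome 17. Of the 50 members, 12 (24.0%) had a gene starting within 1000 bases on the other strand, beside 10.9% of all nuclear-encoded protein-coding genes and 16.7% of those at 10 TPM or more. Other pairs were Psmb1 with Tbp, the TATA-binding protein (137 bases between them), Psma2 with Mrpl32 (75 bases) and Psmc2 with Dnajc2 (32 bases). Counting by strand is not stated, so reads over shared ends cannot be assigned with certainty.

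Promoter sequence was compared to describe what members share beyond the symbols that the rule used. RefSeq promoters (GRCm38.p6, 250 bases before to 50 after the start) were found for 42 members, 45 promoters in all. The ETS core CCGGAAG, on either strand, was in 16 of them (35.6%), beside 8.86% of all 32851 promoters and 19.4% of those of genes at 10 TPM or more. The genes holding it were Psma6, Psmc1, Psmc2, Psmc3ip, Psmc6, Psmd2, Psmd4, Psmd6, Psmd11, Psmd12, Psmd13, Psme3, Psme4, Psmg1 and Psmg3. Psma6 was the only alpha gene among them, and none of the catalytic genes that had a promoter in the table held it. Psme4 was highest in replicate 1, and Psmd2 and Psmd13 in replicate 3. Any link between motifs and the differences between libraries was not tested. TGAGNNNGC, a G form of the antioxidant response core bound by NRF1 and NRF2, was in 31.1%, beside 17.6% of all and 19.6% at 10 TPM, and the standard form TGACNNNGC in 13.3%, beside 12.4% and 15.2%. CCAAT was in 33.3% (37.4% of all, 35.8% at 10 TPM) and TATAAA in 8.89% (13.6% of all, 7.50% at 10 TPM). The interferon-response core GAAANNGAA was in 15.6% (8.56% of all, 8.09% at 10 TPM). Its genes were Psmb3, Psmb4, Psmc2, Psmd4, Psmd9, Psme1 and Psmg4, with no immunoproteasome catalytic gene among them. The STAT site TTCNNNGAA was in 6.67% (8.30% of all, 6.43% at 10 TPM), in Psmb8, Psmd2 and Psmg1. The 2 antioxidant forms and the other motifs are different strings, and a match is a description of these windows.

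The promoters of 2 members with opposite behaviour in replicate 2 are shown 5' to 3' on the gene's strand, with motif matches in capitals and without bases inside an annotated transcript. Psmb5, lowest in replicate 2, holds TGACNNNGC (chr14:54618023-54618245, minus strand, GRCm38.p6). Psmc6, highest in replicate 2, holds TGAGNNNGC, TGACNNNGC on the other strand and the ETS core, in that order (chr14:45329574-45329787, plus strand, GRCm38.p6).
Psmb5: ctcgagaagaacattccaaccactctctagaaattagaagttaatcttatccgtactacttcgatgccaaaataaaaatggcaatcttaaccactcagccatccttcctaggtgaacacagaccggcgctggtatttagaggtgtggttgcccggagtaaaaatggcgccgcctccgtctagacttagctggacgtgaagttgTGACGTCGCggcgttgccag
Psmc6: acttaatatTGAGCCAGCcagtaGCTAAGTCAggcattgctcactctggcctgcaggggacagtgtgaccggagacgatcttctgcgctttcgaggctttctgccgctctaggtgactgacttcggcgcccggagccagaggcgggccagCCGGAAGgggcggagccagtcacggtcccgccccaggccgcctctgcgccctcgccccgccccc

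Other genes of the pathway were read from lists drawn up by role. The shares passing the between-library test stand beside 67.9% of all tested genes and 89.9% of those at 10 TPM or more. Of 12 proteasome partners found, 9 passed. The highest were Pomp, the core maturation factor (34.6, 84.3 and 43.1 TPM), and Zfand5 (44.2 ± 5.99 TPM), a proteasome activator, and the lowest was Fbxo7, which encodes a PI31-binding F-box protein (4.43 ± 0.825 TPM). Pomp deviated by -0.21, 0.29 and -0.09 in replicates 1, 2 and 3, close to Psma7 and Psmd8. Zfand5 deviated by 0.11, -0.24 and 0.14.

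Of 6 ubiquitin and activating enzyme genes 6 passed, among them the ubiquitin gene Rps27a (384 ± 146 TPM), with the activating enzyme Uba6 lowest (4.18 ± 0.977 TPM). Of 9 shuttle and segregase genes 6 passed, led by Vcp, the segregase that extracts ubiquitinated proteins (63.7 ± 14.1 TPM) and the ubiquitin shuttle Rad23b (20.0 ± 5.78 TPM), with Ubqln4 lowest (7.03 ± 1.87 TPM). Of 6 genes of the NRF1 axis, which controls proteasome gene transcription, 5 passed, led by Nfe2l2 (116 ± 27.4 TPM) and Nfe2l1, which encodes NRF1 (31.6 ± 7.99 TPM), with Mafk lowest (6.71 ± 1.06 TPM). The 4 lists had 5 of 12, 4 of 6, 7 of 9 and 1 of 6 genes highest in replicate 2, beside 44.3% of all tested genes and 51.4% of those at 10 TPM or more.

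The gene table gave TPM values over 2-fold above the second transcript table for 41 of 47 members at 1 TPM or more, but this was a difference of scale: the median ratio was 2.26 for members and 2.24 for nuclear-encoded protein-coding genes. After scaling to that median, 0 of 47 members differed by over 2-fold, beside 6.38% of all 10345 genes compared. The member farthest from the median was Psme2b, at 0.633 of it, and on the other side its near-identical copy Psme2, at 1.22.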

How the data were processed

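The authors deposited, per library, a gene table, a first transcript table of the same layout and a second transcript table, on mm10 with GENCODE M21, per the deposited readme files. The deposited expected counts are unnormalized estimates, the deposited TPM values divide by effective length, and the deposited percent column gives a transcript's share of its gene. Whether strand was used, and which aligner and quantifier, is not given in the sources used here. Fragments of 250 to 400 nt came from 1 µg of RNA, per the labels. Rows matching no annotated gene held 0.462%, 0.109% and 0.0969% of counts and were left out.

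Ratios were log2 TPM within libraries. Expected counts were rounded, TMM-scaled with edgeR 4.0.16 (R 4.3.3), filtered at a mean count of 10, and tested by chi-square with Benjamini-Hochberg adjustment at 0.05 over all tested genes. Coefficients of variation came from edgeR's tagwise dispersions with an intercept only, and deviations used a prior count of 0.5. With 1 group, no differential expression was tested. DESeq2 1.42.0, blastn 2.17.0, scipy 1.17.1, pandas 2.3.3, numpy 2.4.6, matplotlib 3.10.9 and Python 3.11.15 were also used. Limits for 0 counts allow 3 counts; intervals cover counting error only.

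Named with values in every library were the catalytic pairs, Psme1 to Psme4 and the highest and lowest gene of each role; also named were the 5 most dispersed members, those over 2-fold apart between tables, and the highest 2 and lowest gene of each pathway list. The values of 1 gene that this rule names are left out. Genes named for deviation, non-coding share or promoter were chosen after their values were seen. The members and lists were chosen with earlier results of these data known. Alternatives were other pseudocounts, filters, scalings and tables, and leaving out each library. A planned comparison of protein sequences was not run.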

Additional observations from a re-analysis of the deposited data

How the results depend on the processing

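Counting protein-coding transcripts only turned the log2 ratio of Psmb8 to Psmb5 from 0.99 to -0.03 and that of Psmb10 to Psmb7 from 1.07 to -0.49, and expected counts without length turned Psme1 to Psme2 from -0.26 to 0.19 and lowered Psme1 to Psme3 from 1.75 to 0.27 and Psmb10 to Psmb7 from 1.07 to 0.23. The ratios of Psmb9 to Psmb6 and Psme1 to Psme3 and the core-to-19S difference kept their sign under each alternative tried. The core-to-19S difference was not computed from expected counts without length, so its dependence on length is not known. Members passing the between-library test numbered 40, and 16 to 34 with 1 library left out, lowest without replicate 2. The median coefficient of variation of members was 13.0%, 8.41% with DESeq2, 15.6% in the second table and 10.7% to 15.5% with 1 library left out. The members' median deviation in replicate 3, -0.02, was 0.00 with TPM of nuclear-encoded protein-coding genes and -0.09 to 0.04 with 1 library left out. The median leading share per library was 96.7% and 94.0% in the second table. The cause of these shifts was not tested. No paired analysis was possible because there is 1 group. Depth limited Psmb11, Psma8 and Psmc3ip, which had at most 72 counts.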
